A study of Mus musculus with 12 samples.

Results

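The response of mouse bone marrow-derived macrophages to 4 h of monophosphoryl lipid A (MPLA) was read from the authors' deposited comparison of 3 libraries of MPLA-treated cells with 3 libraries of untreated controls. All rows of that comparison were taken, 21893 genes in 31 biotypes, out of 24351 genes listed in any of the 3 comparisons of the series. Marrow of wild-type C57BL/6 males aged 8 to 16 weeks had been grown for 7 days with 10% serum and M-CSF at 10 ng/mL, the growth factor of macrophages, which stayed in the culture afterwards. Controls were cultured likewise but never met MPLA, and 2 further groups of 3 libraries each (24 h of MPLA, and 3 d after the end of priming) complete the 12 libraries of the series. The labels' protocols also mention MyD88-/- and TRIF-/- males, but each library used here is labelled C57BL/6. The labels used here tell neither when controls were harvested nor whether replicate libraries had different mice or dishes as their source, so p-values measure only the scatter of these libraries, part of which can be technical.

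MPLA is a detoxified form of the lipid A of lipopolysaccharide and binds Toll-like receptor 4. The receptor signals through the adaptors MyD88 and TRIF to NF-kappaB, to the MAP kinases with the AP-1 factors, and to the interferon regulatory factors. Cytokine and interferon-induced genes are the best known targets, but the same signals reach enzymes, adhesion molecules, receptors, cell cycle genes and noncoding RNAs, and these are the subject here. Many early targets have promoters with few CpG dinucleotides and messengers with AU-rich elements, which shorten a messenger's life.

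The authors' deposited table holds 1 line of statistics per gene and no value per library, so no value by sample, no group overlap and no depth can be given. Fold changes are on the log2 scale, MPLA over control, and come with adjusted p-values from the DESeq2 columns of that table unless edgeR is named. A gene was called higher or lower when its DESeq2 adjusted p was under 0.05, which held for 62.9% of the 17523 genes with an adjusted p, 31.8% higher and 31.0% lower. Where a standard error (SE) follows a log2 change, it is the one a 2-sided normal test would need to give the deposited p, and it cannot be had where that p is stored as 0. No header states the direction of the deposited fold changes: they were read as control over MPLA, the order of the groups in the comparison, and turned. The labelled cell type carried its markers: all 16 macrophage markers were in the table with an adjusted p, and in the authors' deposited table Fcgr1 (3.07), Msr1 (2.65) and Cd14 (2.34) were higher while Csf1r (-1.01), the M-CSF receptor, was lower. Of 10 tested markers of fibroblasts and stroma 5 were higher and 0 lower, of 5 of endothelium 3 and 1, of 4 of T cells 1 and 1, and of 6 of neutrophils 1 and 0. Of 9 dendritic cell markers 6 were higher and 1 lower (2 and 2 with edgeR), with Ccr9 (5.07) and Xcr1 (3.93) highest, and of 8 B cell markers 1 and 3.

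The 2 count models of the authors place 0 differently. The median log2 change of the tested genes in the authors' deposited table was -0.04 (DESeq2) and -0.97 (edgeR), with a median shift of -0.94 between them. As a result 1941 of the 5579 genes higher with DESeq2 were called lower with edgeR, whereas all 5438 lower genes were lower with both. With edgeR 16.8% of the tested genes were higher and 61.9% lower, and edgeR counts of lists below stand beside these shares. A small increase is therefore an increase relative to the scaling, and list medians are given below also relative to the median of all tested genes, on the same scale for both tools. Depth or the total RNA of the cells, either of which could move with this shift, cannot be read from the authors' deposited table.

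**Figure D1:**
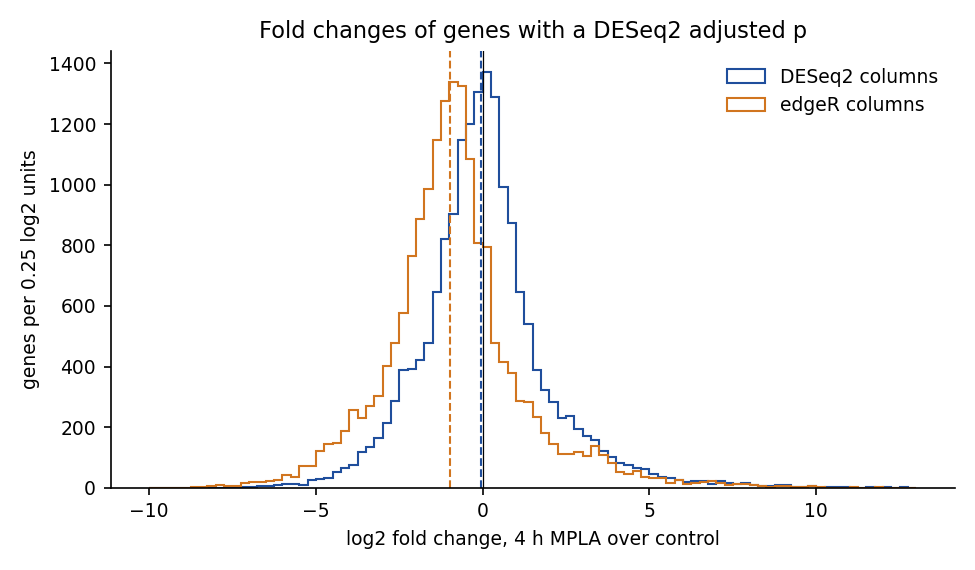
Number of genes (y axis, per 0.25 log2 units) by log2 fold change of 4 h MPLA over control (x axis) for the 17523 genes with a DESeq2 adjusted p, with DESeq2 columns in blue and edgeR columns in orange. Dashed lines mark the medians, -0.04 and -0.97: both distributions have much the same shape and the orange one lies to the left.

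The cytokine and interferon set held only 264 of the 17523 tested genes, so most called genes lay outside it. Within the set 224 rose (84.8%) and 18 fell (6.82%), beside 31.8% and 31.0% of all tested genes. Among the other 17259 tested genes 5355 rose and 5420 fell. At a change of at least 4-fold, which 10.6% (higher) and 8.90% (lower) of all tested genes reached, the counts were 1662 and 1555, and at 16-fold or more 505 and 264. Of these, 370 and 197 had reads in both groups. With edgeR 367 were higher and 954 lower by 16-fold or more, so which direction held more of the largest changes rests on the scaling.

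The largest increases outside the cytokine and interferon set included genes of several enzymes and a vasoactive peptide. That set was drawn by gene name, so interferon-induced genes can remain outside it. Ptgs2, the inducible cyclooxygenase of prostaglandin synthesis (chromosome 1, 150100031 to 150108227, mm10), was 4541-fold higher by the authors' deposited table, the largest change of this kind, with an adjusted p stored as 0. Edn1, the precursor of the vasoconstrictor endothelin 1 (chromosome 13, 42301476 to 42307990), was higher by 12.05 (SE 0.816, adjusted p 1.28e-48) there. Hdc, histidine decarboxylase, which makes histamine, stood at 10.87 (SE 0.459), Lipg, endothelial lipase, at 11.71 (SE 0.642), and Upp1, uridine phosphorylase, at 9.87 (SE 0.464), also by the authors' deposited table. The nitric oxide synthase gene Nos2 and Irg1, which makes itaconate, stood at 12.13 and 10.09. Their substrates are arachidonate, histidine, phospholipids, uridine, arginine and aconitate.

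Protease inhibitors and matrix enzymes were also among the largest increases. Plat, the tissue plasminogen activator, was 265-fold higher by the authors' deposited table. Serpina3f (10.61) and Serpina3g (11.56) are neighbours of 1 serpin cluster, and 10.6% and 15.5% of their 50-base windows occur in transcripts of other genes, so each value is uncertain. Adamts4, an aggrecan-cleaving protease (11.26, SE 0.458), Mmp13, a collagenase (7.52), and Mmp25, a membrane-anchored protease (7.91), were other metalloproteases that rose in the deposited table. Of 77 tested matrix proteases and inhibitors 31 rose and 18 fell (24 and 32 with edgeR), with Adam19 (-5.29) and Mmp23 (-2.77) lowest among the called members. Of 36 growth factors and vascular signals 18 rose and 12 fell (13 and 20 with edgeR). Inhba, the activin A subunit, rose by 7.22, whereas Thbd (thrombomodulin, -4.27), Vegfa (-2.44) and Fgf2 (-1.92) fell in the authors' deposited table.

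Of the 10 tested stromal markers 5 were higher and 0 lower (5 and 1 with edgeR). The matrix and vascular lists had more lower than higher members with edgeR, as did all tested genes (61.9% lower and 16.8% higher). Postn (3.45) and Pdgfrb (2.58) were higher in the authors' deposited table, and Pdgfra, Dcn and Lum were called higher though at 0 reads in controls, so no fold is given for them. The collagen genes of fibroblasts were not called, with Col1a1 at -0.19 (adjusted p 0.897), Col1a2 at -1.75 (adjusted p 0.135) and Col3a1 at 1.20 (adjusted p 0.408). Of the endothelial markers Kdr (4.50), Cdh5 (3.07) and Pecam1 (2.05) were higher and Vwf (-1.03) was lower. The part of such cells in the results was not tested, and in bulk RNA more cells of a type and more RNA per cell cannot be told apart.

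Adhesion and surface receptors also rose far. Sele, E-selectin, best known from endothelium, was higher by 9.91 (SE 0.861) in the authors' deposited table, Vcam1 by 9.08 and Itgb8, the integrin subunit that activates latent TGF-beta, by 10.28 (SE 0.517). Of 42 integrins and adhesion molecules 27 rose and 9 fell (20 and 18 with edgeR), and their median lay 0.98 above that of all tested genes. Itgb3, the beta chain of the vitronectin receptor, fell by 2.41. Cd69 (9.98), an early activation antigen of lymphocytes, Cd40 (9.72), Klrk1 (8.82), the NKG2D receptor, and Lck (7.19), a T cell kinase, were among the increases in the deposited table. The other tested T cell markers, Cd4, Cd5 and Cd2, stood at -0.91, -0.40 and -1.63, of which only Cd4 was called. Fscn1, fascin, an actin bundler of migrating dendritic cells, was 935-fold and Cnn3, the actin-binding calponin 3, 794-fold higher by the authors' deposited table. Cnn3 shares 10.3% of its windows with other transcripts.

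G protein-coupled receptors split nearly evenly, with 25 of 62 higher and 26 lower (21 and 38 with edgeR). Adora2a, an adenosine receptor, was 1230-fold higher (log2 10.26, SE 0.488) in the authors' deposited table, followed by Lpar1 (6.71), a lysophosphatidic acid receptor, Fpr2 (6.45) and Ccrl2 (6.33). Fpr2 shares 31.5% of its windows with related receptors. The chemokine receptor gene Cxcr4 fell by 6.27 (SE 0.211, adjusted p 3.27e-192) and the sphingosine 1-phosphate receptor gene S1pr1 by 5.88 (SE 0.224), while the chemokine receptor genes Ccr9 (5.07) and Xcr1 (3.93) rose. Lpar5 (-5.61), Gpr183 (-5.12), the oxysterol receptor, and Cnr2 (-6.31), a cannabinoid receptor, fell as well in the authors' deposited table. Thus 2 receptors of 1 lysolipid, Lpar1 and Lpar5, moved in opposite directions.

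**Figure D2:**
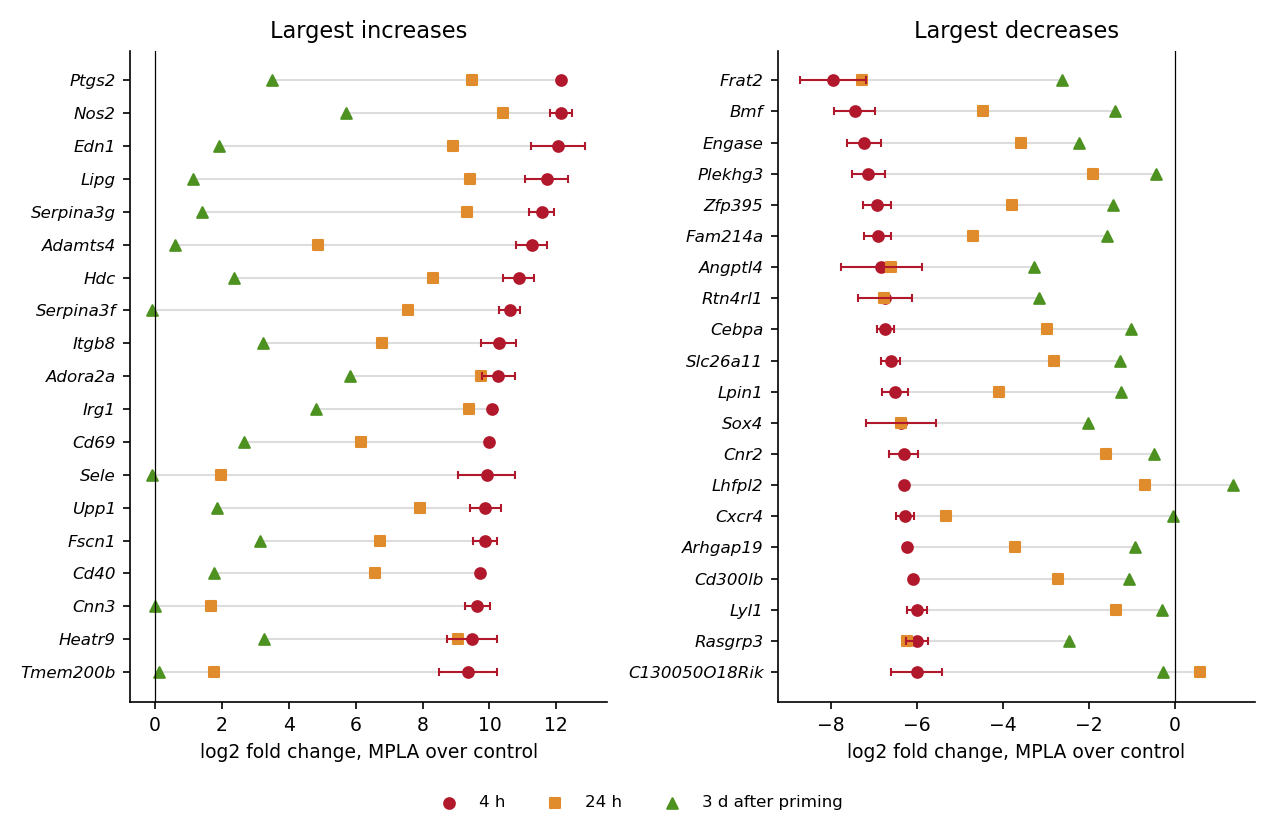
Log2 fold change over control (x axis) of 19 of the 20 coding genes with the largest increase and the 20 with the largest decrease at 4 h outside the cytokine and interferon set, at 4 h (circles, bars show the implied SE where it exists), 24 h (squares) and 3 d after priming (triangles). At 3 d Nos2 (5.72) and Adora2a (5.82) stand farthest to the right, whereas Sele and Cnn3 lie near 0.

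The 20 coding genes with the largest decreases were of varied function. Frat2, an inhibitor of the kinase GSK3, fell by 7.95 (SE 0.772), and its paralog Frat1 (-5.46), filed as a pseudogene in the table, fell too. Bmf, a pro-apoptotic BH3-only protein (chromosome 2, 118528757 to 118549687), was 174-fold lower, and Lpin1, a phosphatidate phosphatase of lipid synthesis, 91.0-fold lower by the authors' deposited table. Angptl4, a lipoprotein lipase inhibitor and target of PPAR factors, fell by 6.83 (SE 0.943). Engase (-7.23), a glycan-releasing enzyme, Slc26a11 (-6.60), a sulfate transporter, and Cerk (-4.82), ceramide kinase, were also low there, as were Plekhg3 (-7.13), Fam214a (-6.91) and Rtn4rl1 (-6.74). Slc40a1, ferroportin, the iron exporter of the cell (chromosome 1, 45908068 to 45926523), was 62.2-fold lower, with an adjusted p stored as 0, per the authors' deposited table. Cd300lb (-6.10) and Cd300a (-3.49), paired activating and inhibitory lipid receptors of myeloid cells, fell together. Lhfpl2 (-6.30), Arl4c (-4.95), Stard9 (-4.84) and Arrdc3 (-4.74) were also among the decreases with the smallest p-values.

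NF-kappaB genes had the highest share of increases of any list, with 22 of 23 higher and 1 lower (18 and 4 with edgeR) and a median 2.43 above that of all tested genes. Nfkbiz (5.75), Tnfaip3 (5.75), which encodes A20, Tnip3 (5.16) and Nfkbia (4.76) stood high in the authors' deposited table. These 4 lay above the subunits Nfkb2 (4.04), Rel (3.92) and Nfkb1 (3.47). The exception was Map3k14, the kinase NIK of the alternative pathway, at -1.64 (SE 0.112). Of 42 MAP kinases and phosphatases 21 rose and 17 fell (12 and 25 with edgeR). The phosphatases Dusp2 (6.34) and Dusp14 (3.92) and the inhibitor Spred1 (3.72) led the increases, and the kinases Map2k6 (-4.42), which activates p38, Map3k1 (-2.52) and Map3k4 (-2.21) the decreases in the authors' deposited table.

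Of 36 immediate-early and AP-1 factors 21 rose and 11 fell (17 and 18 with edgeR), and the median lay 0.75 above that of all tested genes. Nr4a3, an orphan nuclear receptor, was 164-fold higher by the authors' deposited table, and Batf2 (5.14), Jdp2 (5.12) and Batf (5.12), bZIP partners of the Jun proteins, followed. Nr4a1, a close relative of Nr4a3, was 9.76-fold lower, Ier5l fell by 4.53, Klf10 by 4.18 and Fos itself by 1.63. The paralogs Nr4a3 and Nr4a1 thus stood on opposite sides at this time.

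Among lineage factors, members of the C/EBP family moved in opposite directions. Cebpa, the C/EBP factor of myeloid differentiation (chromosome 7, 35119293 to 35121928), was 106-fold lower (log2 -6.73, SE 0.187), while Cebpd rose by 3.79 and Cebpb by 1.68 (SE 0.199) in the authors' deposited table. Cebpd carries the biotype pseudogene in the table. Gfi1, a transcriptional repressor, rose by 7.86 (SE 0.919), Irf8 by 2.72 and Spi1, which encodes PU.1, by 1.94. Bach2 (-4.10), Fli1 (-3.43), Lyl1 and Sox4 (-6.37) fell, and 54.6% of the exonic bases of Sox4 lie under exons of the opposite strand. Of the 35 lineage factors 16 rose and 13 fell (13 and 19 with edgeR), so the list as a whole lay close to the other genes, with a median 0.05 above theirs.

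Nuclear receptors and clock genes fell more often than they rose. Of 29 nuclear receptors and cofactors 7 rose and 17 fell (3 and 26 with edgeR), and the median was 1.02 below that of all tested genes. Rxra, the shared partner of many receptors, fell by 3.83, Pparg by 3.00 and Nr1d1 by 4.04 in the authors' deposited table, while Nr1h3, the oxysterol receptor LXR alpha, rose by 2.19 and Nr3c1, the glucocorticoid receptor, by 1.37. Of 22 clock genes 5 rose and 16 fell (3 and 18 with edgeR), with a median of -1.57. The output factor Dbp (-5.52, SE 0.276), Npas2 (-4.83), Per1 (-3.40) and Per2 (-2.90) were lower, and Cry1 (1.78) and Nfil3 (1.71), the repressor that opposes Dbp, were higher in the authors' deposited table. Exons of the opposite strand cover part of Dbp. The time of day at harvest is not in the labels, so a difference of harvest time between groups cannot be told apart from MPLA here.

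Zinc finger genes of the numbered Zfp series fell in large numbers, 183 of 307 against 50 that rose (263 and 26 with edgeR), with a median of -0.72. Lower genes thus made up 59.6% of the list, which holds coding genes only, beside 36.3% of tested coding genes and 31.0% of all tested genes. Zfp395 (-6.93), Zfp704 (-4.82) and Zfp791 (-4.68) were lowest and Zfp811 (7.08), Zfp800 (4.39) and Zfp37 (4.05) highest in the authors' deposited table. Of 67 chromatin enzymes 28 rose and 32 fell (13 and 52 with edgeR). The H3K9 methyltransferase gene Setdb2 (4.82), the 5-methylcytosine oxidase gene Tet2 (2.69) and the bromodomain gene Brd2 (2.42) were higher, and the deacetylase genes Hdac5 (-4.40) and Hdac11 (-3.85) and the methyltransferase gene Setd7 (-3.68) were lower in the authors' deposited table. The Polycomb genes Cbx8 (-5.77) and Cbx2 (-3.82), which lie side by side, also fell.

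**Figure D3:**
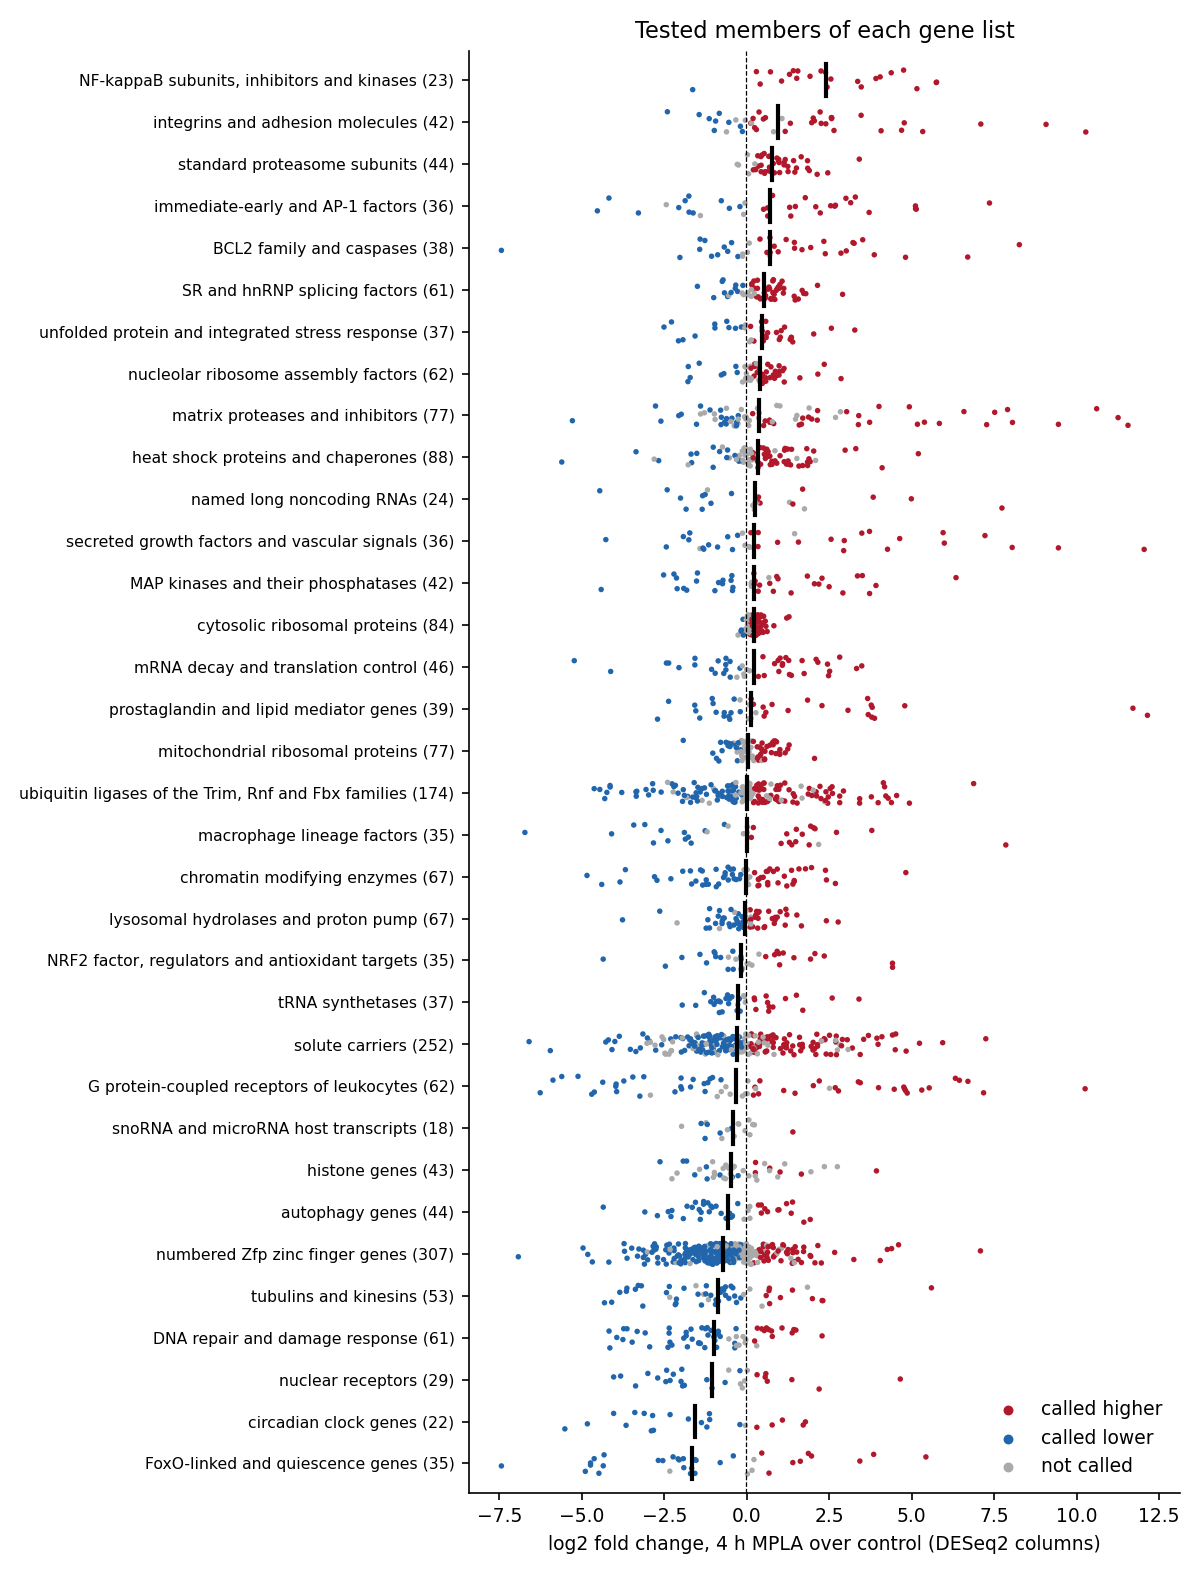
Log2 fold change of 4 h MPLA over control (x axis, DESeq2 columns) for the tested members of 34 of the 35 gene lists (rows, number tested in brackets), with called higher in red, called lower in blue and not called in grey, black bars for the list median and a dashed line for the median of all tested genes. NF-kappaB genes (22 of 23 higher) stand at the top and FoxO-linked genes (22 of 35 lower) at the bottom.

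Genes that decide the fate of messengers changed in both directions, 23 higher and 17 lower of 46 (17 and 26 with edgeR). The decapping enzyme gene Dcp2 (3.33), the endonuclease genes Zc3h12c (3.49) and Zc3h12a (2.82), which encodes Regnase-1, and Zfp36 (2.16), the AU-rich element binder tristetraprolin, rose in the authors' deposited table. Zfp36l1, a paralog of Zfp36 (chromosome 12, 80107754 to 80113013), was 37.6-fold lower with an adjusted p stored as 0, and exons of the opposite strand cover 55.9% of its exonic bases. Pdcd4, an inhibitor of translation, fell by 4.13 and Eif4ebp2, which binds the cap-binding factor, by 2.44. Splicing factors rose more often, 42 of 61 with 11 lower, whereas edgeR had 11 higher and 43 lower. Their median was 0.57 above that of all tested genes with both tools, with Tra2a (2.90), Tra2b (2.14) and Srsf3 (1.79) higher with both tools and Hnrnpl (-1.50) lowest in the authors' deposited table.

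Genes of protein synthesis moved little. Of 84 cytosolic ribosomal proteins 61 were higher and 4 lower with DESeq2, and 1 higher and 81 lower with edgeR, so their direction rests on the scaling, and only 2 changed at least 2-fold. Their median lay 0.26 above that of all tested genes with DESeq2 and 0.25 with edgeR. Rpl39l stood at 1.28 and at 0.38 with edgeR (edgeR adjusted p 0.280), and Rps24 turned from 0.82 to an edgeR value of -0.12, both by the authors' deposited table. Nucleolar factors of ribosome assembly were 37 higher and 8 lower of 62, again against 5 and 46 with edgeR. Wdr43 (2.86), Rrs1 (2.35) and Noc4l (2.16) were higher and Rrp1b (-1.78), Wdr12 (-1.77) and Imp3 (-1.72) lower with both. Of 77 mitochondrial ribosomal proteins 31 were higher and 18 lower (3 and 65 with edgeR), led by Mrpl52 (2.05) and with Mrpl41 (-1.93) lowest. Of 37 tRNA synthetases 13 were higher and 20 lower (5 and 31 with edgeR), with the cytosolic Wars (3.40), Rars (2.59) and Kars (1.70) highest and the mitochondrial Vars2 (-1.96) among the lowest, per the authors' deposited table.

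Proteasome genes, counted without the catalytic subunits of the immunoproteasome, were higher in 39 of 44 and lower in 0 with DESeq2, the highest share of any list after NF-kappaB, whereas edgeR had 15 higher and 24 lower. Their median was 0.81 above that of all tested genes with both tools. The regulator subunits Psme2 (3.41) and Psme1 (2.13), which are known to be induced by interferon, and the core subunits Psma6 (2.46) and Psma3 (1.90) were highest in the authors' deposited table. Of Psme2, 28.3% of the windows are shared with other genes. Of 88 chaperones 46 were higher and 14 lower (21 and 58 with edgeR), with the stress-induced Hspa1b (5.20) and Hspa1a (4.10) highest and Dnajc28 (-5.61) lowest. Those 2 near-identical genes share most of their windows, 62.3% and 60.3%. In the unfolded protein response, 21 of 37 were higher and 11 lower (9 and 24 with edgeR): the phosphatase subunit gene Ppp1r15a (3.28) and the chaperone gene Hspa5 (2.03) rose, whereas Eif2ak3 (-2.51), which encodes the sensor PERK, Sesn2 (-2.28) and Trib3 (-2.07) fell in the authors' deposited table.

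FoxO-linked and quiescence genes were the lowest list, with 22 of 35 lower and 9 higher (28 and 7 with edgeR) and a median of -1.67. Foxo3 itself was 20.4-fold lower by the authors' deposited table, as were Bmf, Sesn1 (-4.90), Arrdc3 (-4.74), the Myc antagonist gene Mxd4 (-4.74) and the ubiquitin ligase gene Fbxo32 (-4.63). Gadd45b (5.43), the cell cycle inhibitor gene Cdkn1a (3.85) and Cited2 (3.43) rose. Autophagy genes fell in 28 of 44 and rose in 12 (37 and 5 with edgeR). Tfeb (-3.09), the master factor of lysosome genes, and the initiating kinase gene Ulk1 (-2.71) were lower, and Atg16l1 (1.92) and the receptor gene Optn (1.73) higher. Lysosomal hydrolases and proton pump genes were balanced, 28 higher and 30 lower of 67 (7 and 57 with edgeR), with Ctsc (2.77) highest and Sgsh (-3.77) and Ctns (-2.64) lowest in the authors' deposited table.

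DNA repair genes fell in 40 of 61 and rose in 13 (56 and 5 with edgeR), with a median 0.96 below that of all tested genes. Brca2 (-4.18), Brca1 (-4.15) and Chek2 (-3.94) were lowest, and Atm (2.28), the kinase that senses double-strand breaks, Mdm2 (1.49) and Fancc (1.43) highest in the authors' deposited table. Of 53 tubulins and kinesins 34 were lower and 10 higher (45 and 5 with edgeR), and the lowest were Kif21b (-4.32) and the mitotic motors Kif18b (-4.10) and Kif23 (-3.85), while the transport motors Kif5c (2.31) and Kif1a (2.28) rose. The BCL2 family and caspases, which hold members for and against cell death, rose in 22 of 38 and fell in 11 (16 and 19 with edgeR). The anti-apoptotic Bcl2a1a (8.26), Bcl2a1d (6.70) and Bcl2a1b (3.52) and the caspase 8 inhibitor Cflar (4.81) were higher, while the pro-apoptotic Bmf (-7.44), the anti-apoptotic Bcl2 (-2.03) and the initiator caspase gene Casp9 (-1.43) were lower in the authors' deposited table. The Bcl2a1 copies share 69.0% to 79.5% of their windows with other transcripts, so the split between them is uncertain.

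Solute carriers, 252 genes, rose in 79 and fell in 102 (49 and 172 with edgeR). Slc6a4, the serotonin transporter, was 152-fold higher (log2 7.25, SE 0.798), Slc7a2, which takes up arginine, 61.4-fold and the hexose transporter Slc2a6 37.7-fold higher, while Slc26a11, Slc40a1 and Slc45a4 (-4.28) were lowest in the authors' deposited table. Among NRF2-linked antioxidant genes, 12 of 35 higher and 16 lower (7 and 25 with edgeR), Sod2 (4.42) and the cystine carrier gene Slc7a11 (4.42) rose and Osgin1 (-4.35), Cbr3 (-2.47) and Hmox1 (-1.97), heme oxygenase 1, fell. Sod2 shares part of its sequence with other genes. Of 39 lipid mediator genes 19 were higher and 15 lower (13 and 24 with edgeR), with Ptgs2 and Lipg highest. The phospholipase gene Pla2g15 (-2.71) and the genes of the prostaglandin-degrading enzymes Hpgd (-2.37) and Ptgr2 (-1.58) were lowest among called members with reads in both groups. Ubiquitin ligases were balanced, 66 higher and 65 lower of 174 (38 and 116 with edgeR), with Trim30c (6.88), Trim30b (4.93) and Trim30d (4.54) highest and Fbxo32, Rnf144b (-4.46) and Trim47 (-4.31) lowest. Of 43 tested histone genes 6 rose and 9 fell (2 and 23 with edgeR), from H3f3b (1.66) to H2afx (-2.63) in the authors' deposited table, and poly(A) selection passes over most histone messengers.

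Of the 35 lists 21 had a median above that of all tested genes. Each lay on the same side with edgeR, which follows from subtracting each tool's own median and is no sign of stability. By plain counts, 19 lists had more members higher than lower with DESeq2 but 2 with edgeR. These lists were drawn up with results of these data known, and their counts are no independent evidence of a direction.

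Beyond coding genes the table holds 6713 noncoding and pseudogene rows, of which 58.3% had an adjusted p, against 89.7% of the 15180 coding genes. Of the 3912 tested, 14.3% were higher and 12.8% lower, beside 36.9% and 36.3% of coding genes. Among biotypes with at least 20 tested genes, long intergenic RNAs (lincRNA) fell more often than they rose, 162 against 96 of 642, and so did processed transcripts, 93 against 60 of 350. Antisense genes were even, 106 higher and 104 lower of 661. Processed pseudogenes, 111 and 36 of 1129, unprocessed pseudogenes, 25 and 6 of 90, and loci of the TEC biotype, 84 and 49 of 487, rose more often. With edgeR 79 lincRNA genes rose and 370 fell, and in none of the 15 biotypes were higher genes in the majority. In these poly(A)-selected libraries 5 of 107 snoRNA genes rose and 0 fell with DESeq2, against 3 and 21 with edgeR. Snord53 stood at 2.44. Of 54 snRNA genes 6 rose and 1 fell (8 and 10 with edgeR).

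**Figure D4:**
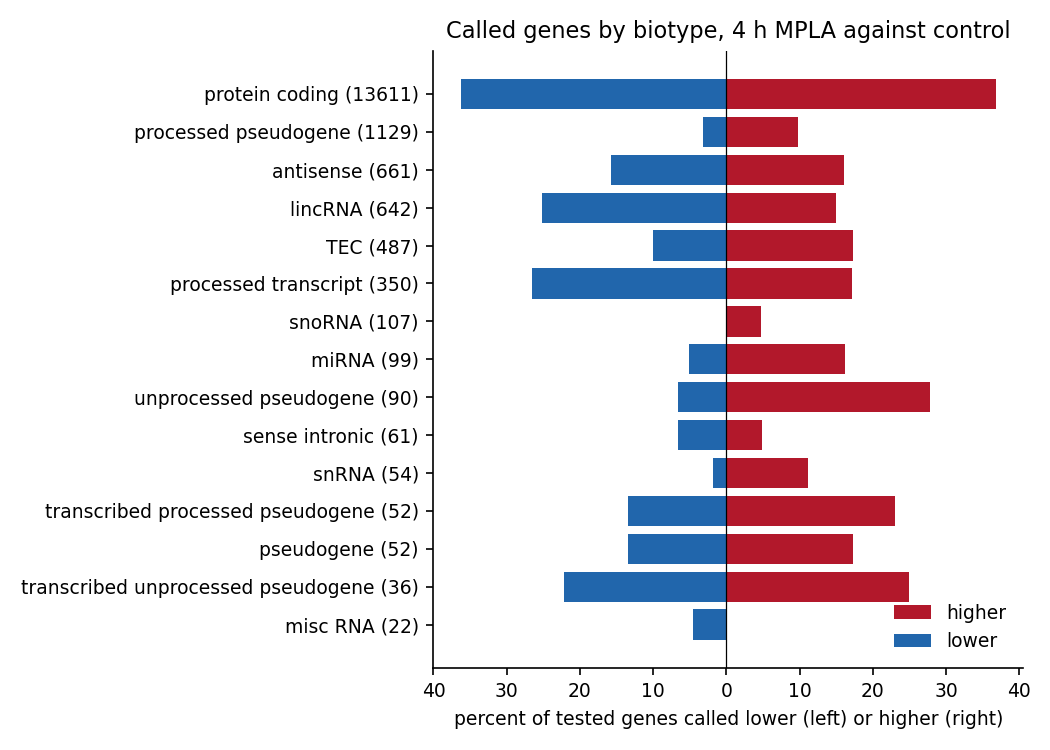
Percent of tested genes called lower (left, blue) or higher (right, red) at a DESeq2 adjusted p under 0.05 for the 15 biotypes with at least 20 tested genes, whose number stands in brackets. Coding genes have the widest bars, 36.9% and 36.3%, and lincRNA and processed transcripts lean to the left.

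Some noncoding genes that were called hold or are microRNA precursors, and the mature sequences encoded in 6 of them are shown first, as RefSeq gives them for GRCm38.p6, with the seed (bases 2 to 8) in capitals. The seed pairs with target messengers, and microRNAs that share it share most targets.
miR-155-5p: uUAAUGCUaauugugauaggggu
miR-9-5p: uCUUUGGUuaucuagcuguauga
miR-221-3p: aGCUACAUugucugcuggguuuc
miR-222-3p: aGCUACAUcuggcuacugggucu
miR-146a-5p: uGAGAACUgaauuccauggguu
miR-223-3p: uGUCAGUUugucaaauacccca
Of the 6, miR-221-3p and miR-222-3p carry the same seed, GCUACAU, and the others differ from it and from each other. Gm26667, the lincRNA with the largest increase (chromosome 16, 84703167 to 84715245, plus strand), was 901-fold higher by the authors' deposited table (log2 9.82, SE 0.492, adjusted p 1.20e-87). The mature miR-155-5p, known from activated myeloid and B cells, lies within it on the same strand, at 84714143 to 84714165. AI854517, the third highest lincRNA at 6.83 (SE 0.960), spans miR-9-5p on chromosome 7. The same mature sequence is also encoded in Gm3764, which was not called (adjusted p 0.0820), and in C130071C03Rik, which was not tested.

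F630028O10Rik went the other way. This gene, filed as antisense (chromosome X, 96239926 to 96243636, plus strand), was 22.0-fold lower (SE 0.169, adjusted p 5.03e-152) in the authors' deposited table, and miR-223-3p, a microRNA of granulocytes and monocytes, lies within it at 96242884 to 96242905. Of 47 noncoding genes in the table that hold a mature microRNA on their own strand, 35 were tested, 6 were higher (17.1%) and 4 lower (11.4%), beside 14.3% and 12.8% of all tested noncoding genes and pseudogenes. Besides Gm26667 and AI854517 the higher ones were Gm15987 (4.68), A430106G13Rik (3.34), Mir99ahg (1.98) and Mir22hg (1.40) in the authors' deposited table. Besides F630028O10Rik the lower ones were Gm37233 (-2.25), Ftx (-2.01) and Snhg20 (-1.39).

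Rows of the microRNA hairpins themselves were called in 21 of 99 tested, 16 higher and 5 lower (11 and 30 with edgeR), and 283 were listed. Mir221 (3.41, SE 0.417) and Mir146 (2.56, SE 0.738) rose in the authors' deposited table. Mir222, a neighbour of Mir221 on chromosome X, was called higher with controls listed at 0. Mir7679, within the Slfn cluster, stood at 4.04 (SE 0.992) and Gm23493 at -3.34. In poly(A)-selected libraries such rows count longer precursors and do not measure the mature microRNA.

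Other long noncoding RNAs changed in both directions. Ptgs2os2, a lincRNA near Ptgs2, was 214-fold higher by the authors' deposited table (SE 0.694), and Ptgs2os was called higher with controls listed at 0. Among antisense genes Gm16685 (8.30, SE 0.571), which overlaps Il7, Gm11998 (5.88) and Gm13822 (5.66), which overlaps Oasl1, were highest, and A930024E05Rik (-5.06), which overlaps the demethylase gene Kdm2b, F630028O10Rik and 4930481A15Rik (-3.94) lowest. The lincRNAs 2610035D17Rik (-6.10) and 5031425F14Rik (-5.65) were the lowest of their class. Of the abundant nuclear RNAs, Neat1, the scaffold of paraspeckles, fell by 1.09, while Malat1 in the authors' deposited table was 0.32 (DESeq2) and -0.62 (edgeR). Gas5, a snoRNA host, fell by 0.46, and among 18 tested host transcripts 1 rose and 5 fell (1 and 16 with edgeR). Gm14005, a processed transcript, rose by 3.83.

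Where an antisense gene and the coding gene on the other strand were both called, most pairs shared their direction. In 663 pairs of a tested antisense gene and an overlapping tested coding gene, both were called in 170, in the same direction in 152 (89.4%) and in opposite directions in 18. In 196 pairs the coding gene alone was called higher and in 163 lower, in 33 the antisense gene alone was called, and in 101 neither was. 9330179D12Rik (4.53) rose with the cyclin gene Ccnd2 (7.44) in the authors' deposited table. Among the exceptions, chosen after their values were seen, Peak1os (3.04) rose while Peak1 (-1.63) fell. The library kit keeps strand, but the sources used here do not tell whether counting used strand, and without it reads of the 2 strands cannot be told apart. In the 188 pairs whose exons do not overlap, 34 of the 39 with both called shared their direction (87.2%).

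Pseudogenes also held large increases. The processed pseudogene Gm12250 (6.10) and the unprocessed Gm18445 (8.42), in the Ifi200 cluster, rose in the authors' deposited table, and part of the windows of Gm18445 are shared with other genes. In such copies reads of the parent gene can be counted, so their values are uncertain.

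Called genes stood side by side in the genome. Neighbours were taken in order of start among tested genes, with the cytokine and interferon set kept in. At 4-fold or more, 51 runs of at least 4 higher genes were found, against 10 lower runs. At 2-fold or more such runs numbered 95 and 70, so the imbalance depends on the cut. Runs were not counted with edgeR. A pair of the higher runs at 4-fold or more held 11 genes. One lies on chromosome 1, 85027954 to 85514604, with 1 coding gene and otherwise antisense genes and pseudogenes, with log2 changes of 2.97 to 5.60. The other, on chromosome 9, 88719629 to 89215471, holds Bcl2a1d, Bcl2a1a and Bcl2a1b with Trim43c and noncoding neighbours, at 2.82 to 8.26. All 10 lower runs held 4 genes, among them Cd28 with its noncoding neighbours (chromosome 1, 60716800 to 60803790), Engase with Cbx2 and Cbx8 (chromosome 11, 118476470 to 119040969), and Cd300a with Cd300lb (chromosome 11, 114890041 to 114934386). Members of the higher runs are often copies of 1 family and share sequence.

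Strongly induced genes had fewer CpG dinucleotides at their start. Over the first 250 bases of the transcript, coding genes higher by at least 16-fold held a median of 8 CpG, against 15 to 19.5 in every other class of change, and 36.2% held at most 5, against 16.8% of genes not called. Without cytokine and interferon genes the median of that class was 10 and the share 29.3%. Genes lower by at least 16-fold held 16. The most induced class had a median of 7 exons, and of 8 without cytokine and interferon genes, the same as genes not called. Transcripts of genes called higher had a median GC content of 48.6%, those called lower 52.1% and those not called 51.4%.

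**Figure D5:**
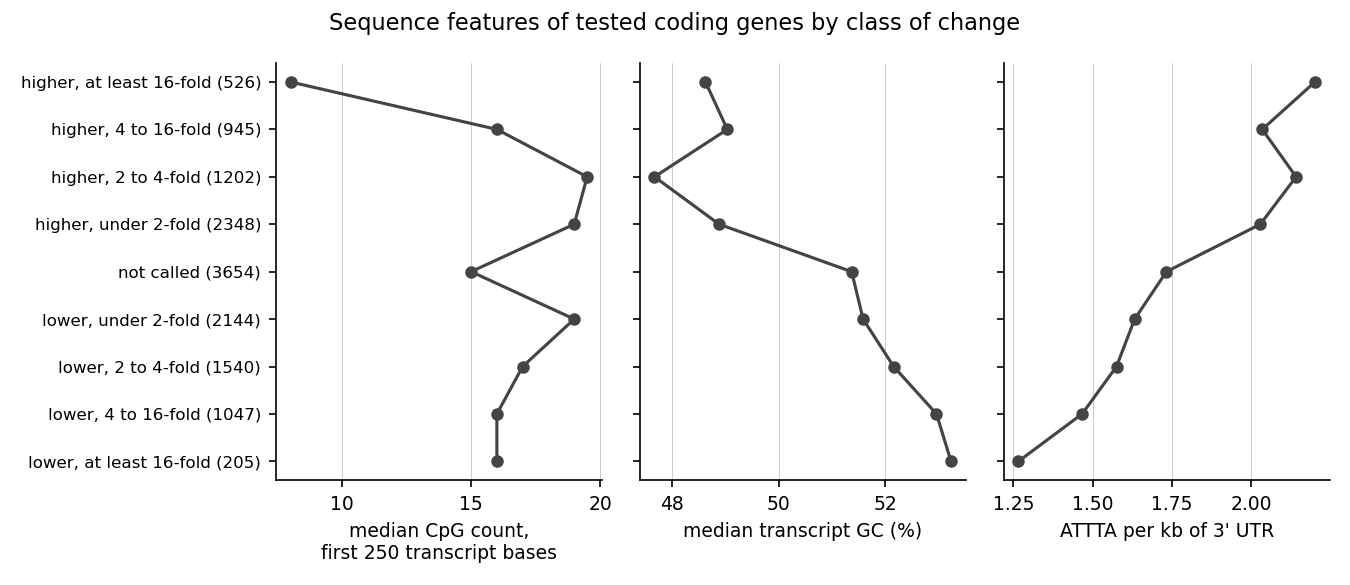
Median CpG count in the first 250 transcript bases (left), median transcript GC content in percent (middle) and ATTTA pentamers per kb of 3' UTR (right) for tested coding genes in 9 classes of change (rows, number of genes in brackets). The class higher by at least 16-fold has the lowest CpG count, 8, and holds 2.20 ATTTA per kb, or 2.11 without cytokine and interferon genes, beside 2.14 in the class higher by 2 to 4-fold.

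GC content ran through the whole table. In the fifth of coding genes with the lowest transcript GC 49.2% were higher and 28.4% lower, in the fifth with the highest 24.2% and 47.7%, and the median log2 change fell from 0.32 to -0.45. Whether the sequencing or the cells gave this slope was not tested, and among lists low in GC, splicing factors had a median of 45.2% and Zfp genes, which mostly fell, 45.9%. After the median of its GC group (5 groups of equal size) was taken from each gene, 31 of the 33 lists with GC values kept their side of the median, the exceptions being chromatin enzymes (0.03 to -0.09) and NRF2-linked genes (-0.12 to 0.04). By chromosome, genes were lower most often on chromosomes 15 (40.5%) and 7 (39.9%), with median GC contents of 53.2% and 53.8%. They were higher most often on chromosome 14 (37.2%). On the chromosomes lowest in GC, X (46.1%) and 13 (46.6%), 31.5% and 32.0% were higher, beside 31.8% of all tested genes.

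AU-rich pentamers, ATTTA in the 3' UTR, were denser in messengers that rose. Genes higher by at least 16-fold held 2.20 per kb, those not called 1.73 and those lower by at least 16-fold 1.27. Without cytokine and interferon genes the first value was 2.11, under the 2.14 of genes higher by 2 to 4-fold. The GC content of the UTRs moved alongside, with medians of 42.5%, 45.3% and 48.0%. The nonamer TTATTTATT, a stricter AU-rich element, was present in 9.63% of the most induced genes and in 5.40% of genes not called, but also in 7.54% of the most reduced, and in 8.67% of the most induced without cytokine and interferon genes. Sites of both kinds of gene are shown as they lie in the UTR, with the nonamer in capitals.
Ptgs2, higher: gaccatatTTATTTATTtatgtgaa
Irg1, higher: ctgaggaaTTATTTATTaactctgg
Zfp36l1, lower: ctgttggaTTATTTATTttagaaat
Lpin1, lower: tgcagataTTATTTATTtctttact
The nonamer is thus shared by messengers that stood at opposite ends of the table.

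Promoter windows of single genes are shown as examples. RefSeq promoter entries (GRCm38.p6, 250 bases before to 50 after the start) covered 79.0% of tested coding genes and 75.5% of those higher by at least 16-fold, which is too few to compare classes, so 4 genes from both ends of the table are given, chosen after their motifs were seen. Capitals mark TATAAA, the AP-1 site TGANTCA and the CRE TGACGTCA. The C/EBP palindrome TTGCGCAA was searched too, all on both strands, but none of the windows shown holds it. In this order the motifs occur in 13.6%, 7.81%, 1.79% and 0.183% of all entries, whose median CpG count is 7.
Irg1, higher, chr14:103046762-103047061, plus strand: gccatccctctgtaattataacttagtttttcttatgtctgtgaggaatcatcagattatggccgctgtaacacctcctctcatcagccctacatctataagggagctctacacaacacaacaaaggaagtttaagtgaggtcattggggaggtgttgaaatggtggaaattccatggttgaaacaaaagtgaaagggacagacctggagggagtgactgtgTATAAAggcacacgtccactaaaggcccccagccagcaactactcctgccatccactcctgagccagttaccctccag
Upp1, higher, chr11:9117758-9118057, plus strand: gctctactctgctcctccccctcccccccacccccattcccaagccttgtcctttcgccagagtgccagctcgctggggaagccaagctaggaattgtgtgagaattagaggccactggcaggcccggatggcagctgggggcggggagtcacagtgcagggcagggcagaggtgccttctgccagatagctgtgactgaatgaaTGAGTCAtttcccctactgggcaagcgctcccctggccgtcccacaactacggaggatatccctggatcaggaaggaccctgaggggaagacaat
Fscn1, higher, chr5:142960105-142960404, plus strand: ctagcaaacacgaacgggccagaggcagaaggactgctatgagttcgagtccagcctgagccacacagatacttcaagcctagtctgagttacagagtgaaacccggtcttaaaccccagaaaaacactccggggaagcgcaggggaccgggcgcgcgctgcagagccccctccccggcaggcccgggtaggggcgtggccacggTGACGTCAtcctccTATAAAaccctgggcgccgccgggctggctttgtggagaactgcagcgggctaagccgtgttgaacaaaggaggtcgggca
Cebpa, lower, chr7:35119043-35119342, plus strand: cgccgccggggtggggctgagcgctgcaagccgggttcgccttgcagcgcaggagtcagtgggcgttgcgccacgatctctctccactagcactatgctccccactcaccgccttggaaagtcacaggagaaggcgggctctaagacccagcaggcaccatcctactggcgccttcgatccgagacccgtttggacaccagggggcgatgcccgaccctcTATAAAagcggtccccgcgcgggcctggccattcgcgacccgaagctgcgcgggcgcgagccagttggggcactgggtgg
Irg1 has 2 CpG in this window and TATAAA 28 bases before the start. Upp1 has 7 CpG and an AP-1 match 45 bases before the start. Fscn1, as strongly induced, has 21 CpG, with a CRE match 45 and TATAAA 31 bases before the start, so few CpG are not a property of each induced gene. Cebpa has 29 CpG and TATAAA 30 bases before the start. A match is a description of letters and not a bound site.

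At the later times the members named here stood as follows, in tables that share the 3 controls and were normalized separately, so that no difference between times was tested. Of the largest increases at 4 h, Adora2a was at 9.75 and 5.82 (24 h and 3 d), Nos2 at 10.39 and 5.72, Irg1 at 9.39 and 4.80, and Traf1, an adaptor of TNF receptors, at 7.70 at 4 h, then 6.93 and 4.81 in the authors' deposited tables. Sele stood at 1.98 and -0.08 and Tmem200b at 1.77 and 0.12. Among decreases, Frat2 was at -7.28 and -2.63, Slc40a1 at -4.49 and -2.34 and Cebpa at -2.98 and -1.01, while Lhfpl2 went from -6.30 at 4 h to -0.70 and 1.35. Hpgd was at -2.37, -8.17 and -6.22 and Ighm at -1.75, -8.98 and -6.42, so for both the 4 h value was the one nearest to 0. Hmox1 stood at -1.97 at 4 h and 2.05 at 24 h, and Per2 at -2.90 and 1.94, each with opposite signs at the first 2 times. The lincRNA Gm26667 was at 7.96 and 2.85, and F630028O10Rik at -3.68 and -1.67, in the authors' deposited tables.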

How the data were processed

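RNA of bone marrow-derived macrophages was sequenced as 12 poly(A) libraries made with a stranded kit, per the labels' protocols. Per the submitters' processing notes the tools were TopHat2 and HTSeq (after bcl2fastq), with DESeq2, DESeq and edgeR, on build mm10. Per the file headers, the authors gave log2 fold changes, p-values and their adjusted values from DESeq2 and edgeR, a log2 ratio without scaling, and a likelihood score with its adjusted score from baySeq. As no header states a direction, the deposited log2 values were taken as control over treated, from the order of groups in the comparison, and reversed. No value per library, count or depth was available to this work, so no new model was fitted and precision rests on 3 libraries a group.

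Calls used the authors' DESeq2 adjusted p, per the file headers, under 0.05, with NA kept as not tested. The tables were read with pandas 2.3.3 and NumPy 2.4.6 in Python 3.11.15, and implied standard errors came from SciPy 1.17.1. These steps were tested on simulated data. Positions, exons and transcripts came from GENCODE vM21 (21761 of 21893 identifiers matched), promoters and microRNAs from RefSeq. Shared sequence is the percent of 50-base windows also found in transcripts of other genes. For UTRs and 5' ends the transcript with the longest coding sequence was used.

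Genes were named by rule: outside the 288 cytokine and interferon genes of the table, called the same way by both tools and with reads in both groups, the 20 highest and 20 lowest coding genes, the 10 with the smallest p in each direction, the 3 highest and 3 lowest of each noncoding biotype and list, the longest runs of neighbours, and members whose role is explained. Some of these, and 1 list, are not reported here. Members and lists were chosen with earlier results of these data known. Alternatives were the edgeR columns of the authors, other thresholds, baySeq calls and the unscaled ratio.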

Additional observations from a re-analysis of the deposited data

How the results depend on the processing

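No paired analysis was possible because the table holds no values per library, and for the same reason no library could be left out and no depth is known. Of the counts of higher (5579) and lower (5438) genes, edgeR gave 2949 and 10965, a minimum of 2-fold 3172 and 3243, and calls by DESeq2, edgeR and baySeq together 2909 higher. The other alternatives (every deposited p adjusted, the baySeq error rate, an adjusted p under 0.01, reads in both groups, and, added after seeing the data, no cytokine or interferon genes) stayed within 1.5 times of both counts. The 505 higher and 264 lower genes of at least 16-fold became 367 and 954 with edgeR, added after seeing the data. Lists with more members higher than lower numbered 19 with DESeq2 and 2 with edgeR, and biotypes 11 and 0. Signs turned for Cd68 (-0.84 with edgeR, -1.06 unscaled), Csf3r (-0.49, -0.71), Malat1 (-0.62, -0.85) and Rps24 (-0.12, -0.32). The median shift from the DESeq2 to the edgeR columns was -0.94, and the cause of these turns was not tested. At 4-fold or more, median GC was 48.9% in higher and 53.0% in lower genes, CpG counts 13 and 16, and ATTTA 2.09 and 1.43 per kb. At 2-fold the longest lower run grew from 4 to 7 genes.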

Other observations

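At a minimum of 2-fold, a lower run of 6 neighbouring genes on chromosome 7 (24193947 to 24316666), was made of zinc finger genes alone, from Zfp111 to Zfp94, at -3.01 to -1.07 in the authors' deposited table.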
